A study of Homo sapiens with 6 samples.

Results

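The proteasome genes of HL-60 cells were examined after knockdown of OSGEP. They were taken by symbol: protein-coding genes named PSMA, PSMB, PSMC, PSMD, PSME, PSMF or PSMG followed only by a number, together with POMP, which gave 49 genes of the 58302 identifiers in each count table. HL-60 is an established human acute myeloid leukaemia line of promyelocyte-like cells that grows in suspension. One group of 3 libraries carried a short hairpin RNA against OSGEP, the catalytic subunit of the complex that makes the t6A modification of tRNA (labelled a knockdown), and the other group of 3 carried a control hairpin in otherwise unmodified cells (labelled WT). Whether the libraries are separate cultures, and how many hairpins against OSGEP were used, is not in the labels, so the p-values below reflect the spread between libraries alone, which may be technical. The study asked about the role of OSGEP in this leukaemia, and the comparison here asks how the transcripts of the proteasome differ between knockdown and control.

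The proteasome is the protease that degrades most ubiquitin-tagged proteins of the cytosol and nucleus. Its barrel-shaped core particle is built of rings of alpha subunits, which gate the entrance, around rings of beta subunits, of which PSMB6, PSMB7 and PSMB5 cut proteins. In cells of the immune system and under interferon, PSMB9, PSMB10 and PSMB8 are built in instead of them, and the resulting immunoproteasome favours peptides that fit MHC class I. A regulatory particle caps the core, with a base of ATPases that unfolds the substrate and a lid that removes its ubiquitin, and other activators, an inhibitor and dedicated assembly chaperones complete the system. Blood cancers that make much protein can depend heavily on it, and drugs that block PSMB5 are used against myeloma.

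Total counts ran from 8326982 to 10157091 per library. OSGEP itself stood at 49.05, 54.41 and 76.92 CPM (read counts scaled to the library total, after TMM normalisation) in control libraries 1, 2 and 3 and at 21.18, 23.11 and 20.87 CPM in knockdown libraries 1, 2 and 3, so the groups did not overlap (log2 fold change -1.47 with SE 0.21, edgeR adjusted p = 0.000228). Of 10 genes in a list of myeloid markers for HL-60, all 10 were detected. Their summed level was 3195 to 3380 CPM in the control against 1432 to 1491 CPM in the knockdown. This fall was not shared by the whole list: 5 were called lower (edgeR, adjusted p under 0.05), 0 higher, and 5 were not called. The share called lower was 50%, against 5.56% of all genes tested. Those called lower were PRTN3 (mean 1244 to 450 CPM), MPO (954 to 286 CPM), ELANE, AZU1 and CSF3R. The log2 fold changes of the others were -0.72 (CTSG), -0.14 (SPI1), -0.03 (CD33), 0.49 (LYZ) and 0.94 (CEBPE). The markers of mature macrophages summed to 35.6 to 41.0 CPM in the control against 92.2 to 104.5 CPM in the knockdown. CD14 made up most of the sum in the knockdown but not in the control, where CSF1R and MARCO were higher. Of 3 tested macrophage markers, CD14 rose from 6.43 ± 0.661 to 72.1 ± 8.28 CPM (log2 fold change 3.48, edgeR adjusted p = 2.6e-08). MARCO fell from 15.4 ± 3.00 to 5.04 ± 0.631 CPM (log2 fold change -1.61, edgeR adjusted p = 0.00939), and CSF1R was not called (0.05). C1QB was at 0 counts, and MRC1 and CD163 lay below 3 CPM in every library. Erythroid markers summed to at most 24.1 CPM and lymphoid markers to at most 99.4 CPM in any library, the latter mostly NKG7. The part of these markers in the results below was not tested, and in bulk RNA fewer cells of a type and less RNA per cell cannot be told apart.

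Of the 49 genes, 47 had enough reads to be tested. PSMB11, the catalytic subunit of the thymus, had 0 counts in all 6 libraries, which allows a level of up to 0.053 CPM. PSMA8, the testis form of an alpha subunit, had 0 counts in the knockdown libraries, which allows up to 0.106 CPM, and 3 counts in the control libraries. These limits cover counting error only.

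Most proteasome transcripts differed little between knockdown and control, and 6 changed. The genes of 2 catalytic beta subunits (PSMB5 and PSMB7), 2 subunits of the base (PSMC2 and PSMD2) and the activator PSME4 rose by 1.37 to 1.61 times, and the immunoproteasome gene PSMB9 fell to 0.337 of its control level. This means that 10.6% of the 47 tested members were called higher and 2.13% lower (edgeR, adjusted p under 0.05), where 5.19% of all 14018 genes tested were called higher and 5.56% lower. The count of higher members fell from 5 to 1 without knockdown 3, control 1, control 2 or control 3, each left out in turn. The control and knockdown libraries did not overlap, with the knockdown higher, for 10 members (21.3%, against 13.3% of all genes), and with the knockdown lower for 5 members (10.6%, against 15.6%). Log2 fold changes were above 0 for 30 of the 47 (63.8%, against 50.3% of all genes), with a median of 0.048 where the median of all genes was 0.0055. With scaling by library size alone, which moves the median of all genes to 0.076, 35 of the 47 lay above 0, and the same 6 calls were made. Of the 41 members that were not called, 24 had a 95% interval that stayed within a 1.5-fold change in either direction.

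**Figure D1:**
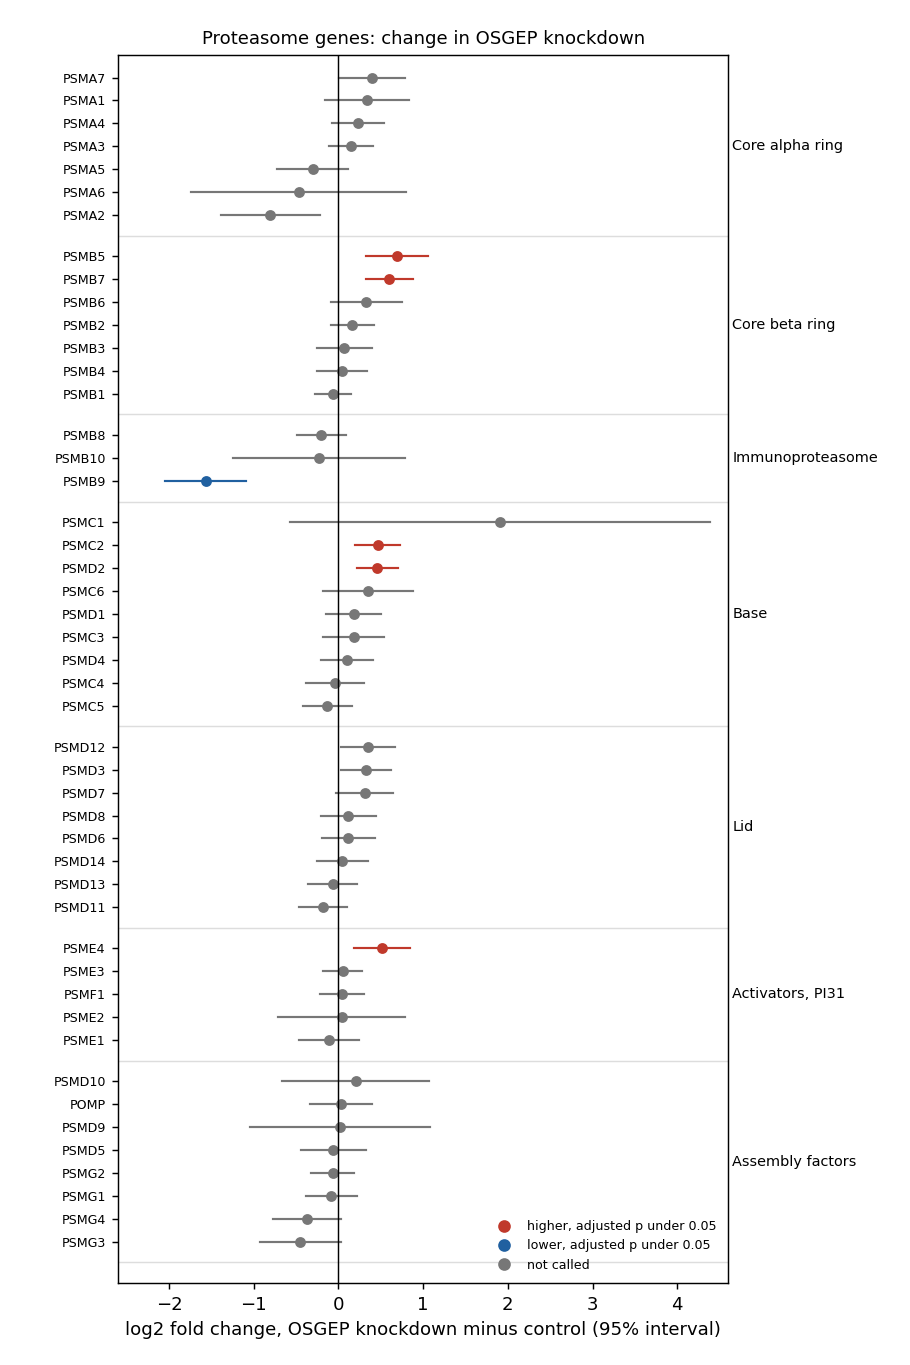
Log2 fold change of the 47 tested proteasome genes, OSGEP knockdown minus control, with 95% intervals from edgeR, grouped by structural role (points: estimates from 3 libraries per group). Red points (PSMB5, PSMB7, PSMC2, PSMD2 and PSME4) were called higher, the blue point (PSMB9, at -1.57) was called lower, grey points were not called, and the widest interval is that of PSMC1.

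Among the proteolytic beta subunits, PSMB5 and PSMB7 rose. PSMB5 carries the chymotrypsin-like site, the target of the drug bortezomib, and is encoded on the minus strand of chromosome 14, from 23016543 to 23035230 (GRCh38). Its level was 51.11, 49.61 and 49.10 CPM in control libraries 1, 2 and 3 and 83.36, 63.88 and 94.17 CPM in knockdown libraries 1, 2 and 3. The controls were nearly identical and every knockdown library lay above them, with knockdown 2 the closest. The log2 fold change was 0.69 (SE 0.17, 95% interval 0.32 to 1.05, edgeR adjusted p = 0.0157). The call was lost without knockdown 3 (0.58), control 1 (0.70), control 2 (0.68) or control 3 (0.67).

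PSMB7 carries the trypsin-like site and is encoded on the minus strand of chromosome 9, from 124353466 to 124415444. It was measured at 126.6, 103.9 and 121.6 CPM in the controls and at 195.3, 174.5 and 164.9 CPM in the knockdown, in the same order of libraries. The lowest knockdown library was well above the highest control, and the log2 fold change was 0.60 (SE 0.13, 95% interval 0.32 to 0.88, edgeR adjusted p = 0.00632). Only the fit without control 2 lost the call (0.52). PSMB6, which carries the caspase-like site, stood at 38.13, 30.89 and 38.03 CPM in the controls and 50.60, 44.84 and 38.90 CPM in the knockdown. Its groups did not overlap by a narrow margin and it was not called (log2 fold change 0.33, 95% interval -0.09 to 0.75, edgeR adjusted p = 0.363).

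The other beta subunits of the core, which have no active site, were not called. PSMB1, the most abundant proteasome transcript per kilobase of exon, had 769.9 ± 40.6 CPM in the control against 738 ± 79.2 CPM in the knockdown (SD, n = 3 each), and its 95% interval of the log2 fold change ran from -0.27 to 0.15. PSMB2, PSMB3 and PSMB4 had log2 fold changes of 0.16, 0.07 and 0.04. The beta ring genes summed to 1455 ± 45.1 CPM in the control against 1557 ± 140.1 CPM in the knockdown, and these sums overlapped.

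Of the 3 immunoproteasome genes, 0 rose (against 5.19% of all genes tested) and 1 fell (33.3%, against 5.56%). All 3 had log2 fold changes below 0, where 50.3% of all genes tested lay above 0. PSMB9, which replaces PSMB6, on chromosome 6 at 32844136 to 32859585 on the plus strand within the MHC class II region, stood at 47.40, 65.56 and 54.52 CPM in control libraries 1, 2 and 3 and at 14.82, 22.47 and 19.09 CPM in knockdown libraries 1, 2 and 3. The highest knockdown library was below 25 CPM and the lowest control was above 45 CPM. The log2 fold change was -1.57 (SE 0.22, 95% interval -2.05 to -1.09, edgeR adjusted p = 0.000192), and PSMB9 kept its call in each of the 6 fits that left out 1 library, with values from -1.71 to -1.43.

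PSMB8, the immune counterpart of PSMB5, lies on the other strand, from 32840717 to 32844703, partly within the annotated span of PSMB9. It had 118.1, 113.4 and 123.9 CPM in the controls and 113.0, 94.67 and 101.6 CPM in the knockdown. The groups came close without overlapping, and it was not called (log2 fold change -0.20, 95% interval -0.48 to 0.08, edgeR adjusted p = 0.425). PSMB10, the counterpart of PSMB7, was low in every library, at 7.21, 5.52 and 6.77 CPM in the controls and 6.16, 6.01 and 4.39 CPM in the knockdown. Its groups overlapped, and its interval was wide (log2 fold change -0.23, 95% interval -1.25 to 0.78, edgeR adjusted p = 0.845).

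Exons of these 3 genes overlap those of neighbours on the same or the opposite strand, so their reads may not be cleanly separable. PSMB8-AS1, a long noncoding RNA that overlaps exons of both PSMB8 and PSMB9, fell as well, from 20.5 ± 4.84 to 6.74 ± 4.62 CPM (SD, n = 3 each, log2 fold change -1.60 with SE 0.43, edgeR adjusted p = 0.0233). It covers 5.66% of the exonic bases of PSMB9, on the same strand, and 20.6% of those of PSMB8, on the opposite strand. There the strand setting of the counting matters and is not given. The exon overlaps of PSMB9 with PSMB8-AS1 and with PSMB8 lie upstream of the RefSeq start of PSMB9, at 32854192. Another annotated gene shares 34.8% of the exonic bases of PSMB10, on the same strand.

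Each immune subunit was also set against the subunit it replaces, as a ratio of levels per kilobase of exon within a library. PSMB9 relative to PSMB6 was 0.586, 1.0005 and 0.676 in the controls and 0.138, 0.236 and 0.231 in the knockdown. PSMB8 relative to PSMB5 was 1.36, 1.35 and 1.49 in the controls and 0.798, 0.873 and 0.636 in the knockdown. PSMB10 relative to PSMB7 was 0.0549, 0.0513 and 0.0537 in the controls and 0.0304, 0.0332 and 0.0257 in the knockdown. For all 3 ratios the highest knockdown library lay below the lowest control. PSMB9 fell in the first ratio, and PSMB5 and PSMB7, the denominators of the others, rose. The mean ratios of the controls were 3.74, 1.82 and 1.79 times those of the knockdown. These ratios are given as levels, with no test. Exon lengths were those of all annotated isoforms together, so the ratio itself depends on the annotation, while the fold between the groups does not.

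**Figure D2:**
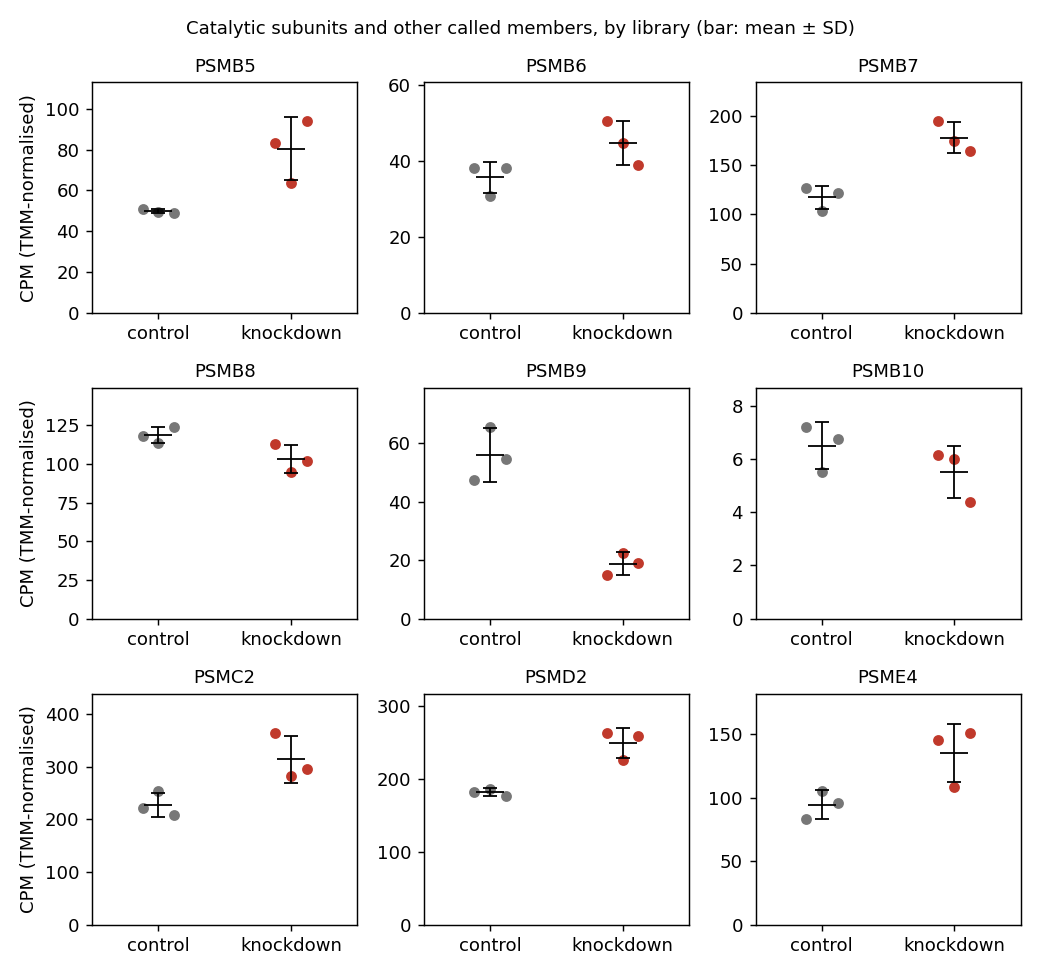
Level of the catalytic subunits and the other called members in each library, in TMM-normalised CPM on axes that start at 0 (grey: 3 control libraries, red: 3 knockdown libraries, bars: mean ± SD). The top row holds the constitutive catalytic subunits, the middle row the immune subunits that replace them, and the bottom row PSMC2, PSMD2 and PSME4, with PSMB9 between 14.82 and 22.47 CPM in the knockdown and between 47.40 and 65.56 CPM in the control.

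PSMB9 shares its upstream region with TAP1, the gene of a subunit of the peptide transporter that feeds MHC class I. TAP1 runs in the opposite direction, and the nearest start sites are 488 bases apart in RefSeq. That start of PSMB9 is at 32854192. The annotated span of PSMB9 given above begins further upstream, at 32844136, and runs across TAP1 (32845209 to 32853978). TAP1 was not called, at 15.35, 10.02 and 11.57 CPM in the controls and 4.17, 12.57 and 10.32 CPM in the knockdown (log2 fold change -0.45, 95% interval -1.34 to 0.44). It was chosen for this position after its values were seen. Of 16 genes of MHC class I peptide supply, 0 rose and 2 fell: HLA-B, from 2022 ± 16.6 to 1511 ± 138 CPM (log2 fold change -0.42 with SE 0.08, edgeR adjusted p = 0.00357), and the peptidase TPP2, from 148.2 ± 11.04 to 102 ± 12.2 CPM (-0.54 with SE 0.14, edgeR adjusted p = 0.0173). TPP2 lost its call without knockdown 3 (-0.44), control 2 (-0.57) or control 3 (-0.48). The median of the 16 was -0.024. Of the 16, 12.5% were called lower and 0% higher, where 5.56% and 5.19% of all genes tested were.

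The upstream sequences show which of these genes carry an interferon-type element near the start. RefSeq windows (GRCh38.p14) were found for 43 of the 49 members, some with several start sites, and the 250 bases before each start were searched on both strands for the core of the interferon-stimulated response element, which is GAAA, any 2 bases and GAAA. It occurred before 5 members (PSMB10, PSME2, PSMA4, PSMB4 and PSMG4), in 9.62% of the 52 member windows, against 3.02% of all 35116 windows. It was not in the PSMB9 window but gave 2 matches in the TAP1 window, on the far side of their shared upstream region, which overlap by 4 bases. The stretches of PSMB10 and PSME2, which belong to the interferon-induced set, and of TAP1 are shown in the direction of each gene, with the matches in capitals.
PSMB10, chr16:67936852-67936881, minus strand: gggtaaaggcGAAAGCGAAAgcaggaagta
PSME2, chr14:24146619-24146648, minus strand: cctggggagtGAAAGCGAAAgcccgggcga
TAP1, chr6:32853816-32853845, minus strand: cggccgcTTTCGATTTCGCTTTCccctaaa
None of these 3 genes was called. A match is a description of the letters, not evidence of a bound factor.

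The alpha ring showed no call among 7 tested genes, with a median log2 fold change of 0.14. PSMA7 had the largest positive value, with 182.5, 135.7 and 135.3 CPM in the controls and 137.7, 249.1 and 209.6 CPM in the knockdown. Knockdown 1 lay within the control range, and the gene was called only in the fit without that library, at 0.60, against 0.40 over all 6 (edgeR adjusted p = 0.212). PSMA1, PSMA4 and PSMA3 had log2 fold changes of 0.34, 0.23 and 0.14, and PSMA5 and PSMA6 had -0.31 and -0.47. PSMA2 was lower in every knockdown library, at 12.31, 12.76 and 11.50 CPM against 18.96, 22.19 and 22.77 CPM in the controls. Its log2 fold change of -0.80 (95% interval -1.39 to -0.22) missed the threshold (edgeR adjusted p = 0.0771). The summed level of the ring was 570.2 ± 9.74 CPM in the control against 641 ± 49.3 CPM in the knockdown. The sums did not overlap, by a narrow margin: 586.1 CPM in knockdown 1 against 581.1 CPM in control 1. The uncalled PSMA7 alone went from a mean of 151.2 to 198.8 CPM.

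In the base of the regulatory particle, 2 of 9 genes rose (22.2%, against 5.19% of all genes tested) and 0 fell (against 5.56%), with a median of 0.18. PSMC2, one of the ATPases of the ring that unfolds substrates, is encoded on the plus strand of chromosome 7, from 103344254 to 103369395. It had 221.2, 253.6 and 208.7 CPM in the controls and 365.2, 283.1 and 295.1 CPM in the knockdown. Knockdown 1 was highest, the groups did not overlap, and the log2 fold change was 0.46 (SE 0.13, edgeR adjusted p = 0.0251). PSMC2 was not called when knockdown 1 (0.34), knockdown 3 (0.52), control 1 (0.44) or control 3 (0.40) was left out.

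PSMD2, a large scaffold subunit that docks ubiquitin shuttles, is encoded on the plus strand of chromosome 3, from 184298709 to 184309054. It stood at 182.2, 186.6 and 176.0 CPM in the controls and at 263.3, 225.5 and 259.4 CPM in the knockdown. The controls were close together and all below the knockdown libraries (log2 fold change 0.46 with SE 0.11, edgeR adjusted p = 0.0154). The call was lost without knockdown 3 (0.44), control 1 (0.46), control 2 (0.47) or control 3 (0.43). The remaining base genes that were measured well were not called: PSMD1 at 0.18, the ubiquitin receptor PSMD4 at 0.10, and the ATPases PSMC6, PSMC3, PSMC4 and PSMC5 at 0.35, 0.18, -0.04 and -0.13 on the log2 scale. Summed over the base, the level was 900 ± 38.5 CPM in the control against 1083 ± 66.9 CPM in the knockdown, without overlap.

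No lid gene was called, although 6 of 8 had log2 fold changes above 0 (75%, against 50.3% of all genes tested). For the lid genes PSMD3, PSMD12 and PSMD7 (37.5% of the 8, against 13.3% of all genes tested), every knockdown library was above every control. PSMD12 had 68.94, 70.16 and 63.87 CPM in the controls and 91.19, 74.70 and 93.10 CPM in the knockdown (log2 fold change 0.35, 95% interval 0.03 to 0.67, edgeR adjusted p = 0.173). PSMD3 had 0.33 (edgeR adjusted p = 0.160) and PSMD7 had 0.31 (edgeR adjusted p = 0.271). PSMD14, the deubiquitinase that strips ubiquitin chains from substrates, had 110 ± 13.9 CPM in the control against 114 ± 10.1 CPM in the knockdown, with an interval from -0.26 to 0.35. PSMD8, PSMD6, PSMD13 and PSMD11 had 0.12, 0.12, -0.07 and -0.19. The lid summed to 853 ± 51.4 CPM in the control against 913 ± 42.3 CPM in the knockdown, and the sums overlapped.

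Among the activators, which open the core without ATPases, PSME4 rose. It encodes the nuclear activator PA200 and is encoded on the minus strand of chromosome 2, from 53864067 to 53970840. It had 83.05, 105.6 and 95.63 CPM in the controls and 145.9, 108.8 and 151.4 CPM in the knockdown. Knockdown 2 barely cleared control 2, and the log2 fold change was 0.51 (SE 0.16, edgeR adjusted p = 0.0445). The call held only in the fit without knockdown 2 (0.66) of those that left out 1 library. With knockdown 1, knockdown 3, control 1, control 2 or control 3 left out, PSME4 was not called, at 0.45, 0.44, 0.42, 0.60 and 0.52.

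PSME3, the nuclear activator PA28 gamma, had 249 ± 15.01 CPM in the control against 258 ± 12.5 CPM in the knockdown, a log2 fold change of 0.05 with an interval from -0.18 to 0.28. PSME1 and PSME2, the interferon-induced activators PA28 alpha and beta, had -0.11 and 0.04, and PSMF1, the inhibitor PI31, had 0.04. The activators and the inhibitor together summed to 589 ± 47.05 CPM in the control against 638 ± 24.4 CPM in the knockdown, with overlap.

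The assembly factors showed 0 calls among 8 with edgeR, and 0 of them had an unadjusted p under 0.05, where 11.0% of all genes tested were higher and 11.9% lower at that threshold. DESeq2 and limma-voom also called 0 of the 8. POMP, the chaperone of beta ring assembly, had 97.38, 124.8 and 83.69 CPM in the controls and 119.7, 109.5 and 83.02 CPM in the knockdown, almost the same range in both groups. PSMG1 and PSMG2, the pair that starts the alpha ring, had log2 fold changes of -0.08 and -0.07, with intervals from -0.39 to 0.22 and from -0.32 to 0.19. PSMG3 and PSMG4, their partners in the next step, were lower in every knockdown library without a call, at -0.45 (edgeR adjusted p = 0.260) and -0.37 (edgeR adjusted p = 0.260). PSMD5, PSMD9 and PSMD10, chaperones of the base, had -0.06, 0.02 and 0.20. The factors summed to 621 ± 41.03 CPM in the control against 584 ± 50.9 CPM in the knockdown, so this was the role besides the immunoproteasome with a lower mean sum in the knockdown (ratio 0.941, and 0.985 with library size alone). The sums overlapped.

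**Figure D3:**
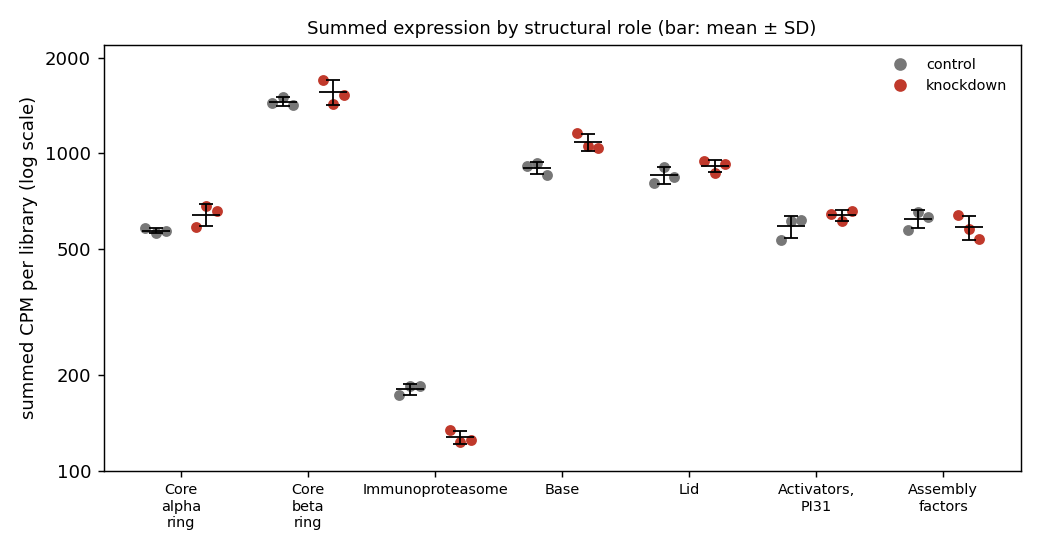
Summed level of the genes of each structural role in each library, in TMM-normalised CPM on a log axis (grey: 3 control libraries, red: 3 knockdown libraries, bars: mean ± SD). The immunoproteasome genes sum to 172.7 to 185.2 CPM in the control against 123.1 to 134.0 CPM in the knockdown. The base, at 1038 to 1160 CPM in the knockdown, is the role with the largest ratio of knockdown to control. Its sum includes the called genes PSMC2 and PSMD2.

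Summed over all 49 genes, the level was 5016, 5362 and 5127 CPM in the controls and 5815, 5338 and 5477 CPM in the knockdown, a ratio of 1.07 with 1 knockdown library inside the control range. With library size alone the ratio was 1.12 and the groups did not overlap. Under that scaling the sums of the beta ring, the lid and the activators with the inhibitor also lay higher in the knockdown without overlap. Without the 5 genes that rose, the ratio was 1.02.

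Counts of several members were split with processed pseudogenes, which are intronless copies elsewhere in the genome. Of 18 members with an annotated pseudogene of their name, 4 had under 70% of the joint reads on the gene itself. PSMC1, an ATPase of the base, held 74 of the reads in all 6 libraries and its 13 pseudogenes held 3744, so 1.94% fell on the gene. The share was 18.2% for PSMA6, 39.8% for PSME2 and 58.3% for PSMA2. The difference of PSMC1, with 15 counts in the control and 59 in the knockdown (log2 fold change 1.91 with SE 1.17, edgeR adjusted p = 0.375), therefore rests on few reads. Exons of NRDE2 on the opposite strand also cover 75.8% of its exonic bases.

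When the pseudogene reads were added to their parents, an alternative chosen after the data were seen, PSMC1 stood at 61.1 ± 7.71 CPM in the control against 73.5 ± 6.77 CPM in the knockdown (log2 fold change 0.27, edgeR adjusted p = 0.369). PSMA2 moved from -0.80 to -0.56 (edgeR adjusted p = 0.128), PSMA6 from -0.47 to 0.13 (edgeR adjusted p = 0.865) and PSME2 from 0.04 to 0.08 (edgeR adjusted p = 0.876). Levels of these 4 genes are uncertain in either form, while the 6 called members had at least 96.1% of the joint reads on the gene itself or no annotated pseudogene of their name, and their calls did not change.

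**Figure D4:**
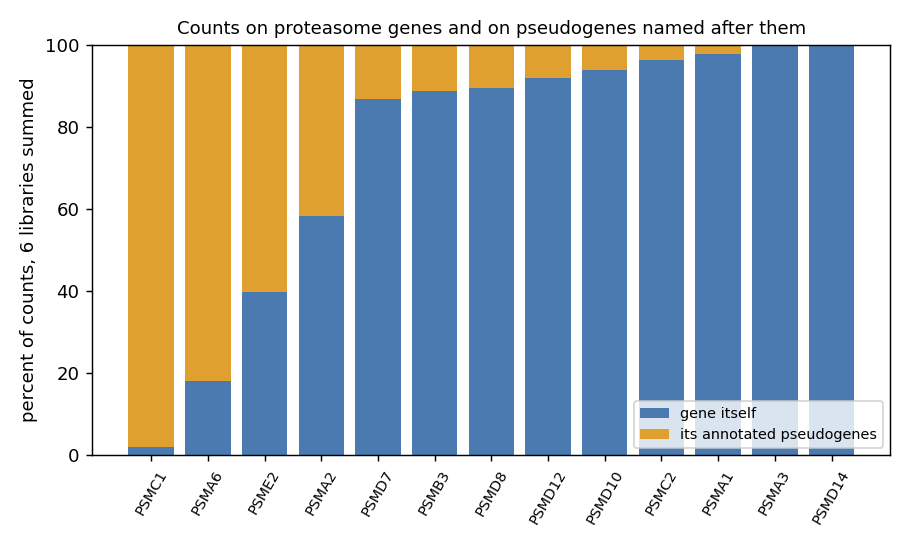
Share of counts on a proteasome gene itself (blue) and on annotated pseudogenes of its name (orange), in percent over the 6 libraries together, for the 13 members with any pseudogene reads. PSMC1 has 1.94% of the joint counts on the gene itself, and PSMA6, PSME2 and PSMA2 have 18.2%, 39.8% and 58.3%.

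Proteasome genes are known to be raised together by NFE2L1 (also called NRF1), a factor that is activated when proteasome capacity is short and that binds antioxidant response elements. The core of that element, TGACNNNGC on either strand, lay in the 250 bases before the start of 13 of the 43 members with a window and in 25.0% of the 52 member windows, against 10.9% of all windows. Of the 6 called genes, PSMB9 and PSME4 held it and PSMB5, PSMC2 and PSMD2 did not, and PSMB7 had no window. Among the members not called, PSMD3 and PSMD12 held it and are shown because their unadjusted p was under 0.05. The other uncalled members with a match were PSMA4 (log2 fold change 0.23), PSMB3 (0.07), PSME2 (0.04), PSMD9 (0.02), PSMD5 (-0.06), PSMG2 (-0.07), PSMG1 (-0.08), PSME1 (-0.11) and PSMC5 (-0.13). The stretches of these 4 genes are shown in the direction of each gene with the match in capitals, which in PSMB9 and PSME4 reads on the opposite strand.
PSMB9, chr6:32854034-32854063, plus strand: gggcggggctGCCTCGTCActtgtctcggg
PSME4, chr2:53971008-53971037, minus strand: cccggcggctGCAGCGTCAccagcagagcc
PSMD3, chr17:39980760-39980789, plus strand: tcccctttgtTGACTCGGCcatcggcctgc
PSMD12, chr17:67366723-67366752, minus strand: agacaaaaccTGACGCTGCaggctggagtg
The RefSeq start of PSME4 lies upstream of the end of the gene as annotated in GENCODE, and the first 30 bases after it were not found in a GENCODE transcript of PSME4, so the position of that stretch relative to the start in use is uncertain. Genes with a match included 1 that fell, 1 that rose and 11 that were not called. The CCAAT box, CCAAT on either strand, was in 36.5% of the member windows and 32.0% of all windows. The core of the NF-kB motif was in 19.2% of the member windows and 22.6% of all windows.

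Of 16 tested genes of the transcriptional control of the proteasome, 1 rose and 1 fell. These shares of 6.25% each are close to those of all genes tested (5.19% higher and 5.56% lower). SYVN1, an ubiquitin ligase of the endoplasmic reticulum that keeps NFE2L1 low, rose from 43.2 ± 11.04 to 70.6 ± 13.4 CPM (log2 fold change 0.71 with SE 0.21, edgeR adjusted p = 0.0404). NFYA, a subunit of the CCAAT-binding factor, fell from 25.1 ± 3.06 to 13.5 ± 2.21 CPM (-0.89 with SE 0.27, edgeR adjusted p = 0.0453). Of the fits that left out 1 library, SYVN1 was called only without knockdown 3 (0.84) or control 2 (0.88), with 0.51 to 0.76 in the other 4 fits, and NFYA only without knockdown 2 (-1.02), with -0.98 to -0.80 in the others. NFYA was also lost with RLE factors (-0.87), library size alone (-0.81) and no filter (-0.88). NFE2L1 itself, named here for its known role after its value was seen, had 49.5 ± 6.81 CPM in the control against 60.4 ± 16.6 CPM in the knockdown (log2 fold change 0.29, 95% interval -0.15 to 0.72, edgeR adjusted p = 0.463).

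Of 21 tested genes of proteasome-bound and shuttle factors, 3 rose (14.3%, against 5.19% of all genes tested) and 0 fell (against 5.56%), with a median of 0.19. ZFAND2A, a stress-induced zinc finger protein of the regulatory particle, rose from 9.07 ± 1.08 to 19.3 ± 3.66 CPM (log2 fold change 1.09 with SE 0.31, edgeR adjusted p = 0.0357). DDI2, the protease that cuts NFE2L1 into its active form, rose from 41.1 ± 0.914 to 59.9 ± 3.57 CPM (0.54 with SE 0.17, edgeR adjusted p = 0.0486). TXNL1, a thioredoxin-like protein bound to the regulatory particle, rose from 369 ± 16.2 to 481 ± 18.9 CPM (0.38 with SE 0.10, edgeR adjusted p = 0.0178). Of the fits that left out 1 library, ZFAND2A was called only without knockdown 2 (1.24, and 0.98 to 1.15 in the others), DDI2 only without knockdown 1 (0.59, and 0.51 to 0.55 in the others), and TXNL1 only without knockdown 1 (0.37) or knockdown 2 (0.43), with 0.35 to 0.41 in the others. DDI2 was also lost with no filter (0.55).

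UBE2K, an ubiquitin-conjugating enzyme, rose from 278 ± 19.9 to 362 ± 13.1 CPM (log2 fold change 0.38 with SE 0.11, edgeR adjusted p = 0.0281). It was lost without knockdown 3 (0.40), control 1 (0.41), control 2 (0.40) or control 3 (0.32). Of 12 genes of the p97 segregase, which extracts proteins for the proteasome, 0 were called by edgeR, with 2 at an unadjusted p under 0.05, both higher, where 11.0% of all genes tested were higher at that threshold. VCP, the ATPase itself, had 193 ± 23.3 CPM in the control against 258 ± 34.1 CPM in the knockdown (log2 fold change 0.42, edgeR adjusted p = 0.0539). It passed with DESeq2 (0.43) and limma-voom (0.41), with RLE factors (0.43), library size alone (0.49), no filter (0.42), a mean CPM filter of 5 (0.44) and protein-coding genes alone (0.41), and without knockdown 1 (0.52). VCP was not called with the replicate block (0.42), without knockdown 2 (0.37) or in the remaining fits that left out 1 library. Nor was it called with pseudogene reads added to members.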

How the data were processed

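RNA sequencing of HL-60 cells was analysed in 6 libraries, 3 per group, grouped by sample title. Per the labels' protocols, total RNA went into a stranded mRNA kit and was read in pairs of 150 bp. The authors deposited read counts per Ensembl gene. The submitters' processing notes list HISAT2 2.1.0, featureCounts 1.6.3 and the builds GRCh38 and GRCm38; the sources used here do not give the annotation, strand setting or treatment of multiply aligned reads. Symbols, positions and exon lengths came from GENCODE release 29 (GRCh38) and a table of current names.

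edgeR 4.0.16 (R 4.3.3) was fitted to all genes: quasi-likelihood F test, group as the only term, TMM, filterByExpr (minimum count 10, minimum total 15), two-sided, Benjamini-Hochberg over 14018 genes, with calls at an adjusted p under 0.05. Standard errors and 95% intervals were computed from the F statistic. The fit was tested on simulated data. Alternatives were RLE factors, library size alone, no filter, a mean CPM of 5, a replicate block, each library left out, DESeq2 1.42.0, limma-voom (limma 3.58.1) and an adjusted p of 0.01. Pseudogene reads added to members and protein-coding genes alone were added after seeing the data. Members and lists were chosen with earlier results of these data known. All members were named, with per-library values for called members and catalytic subunits, and from each pathway list up to 4 called genes or the most abundant one. A few further members and genes were given by library after their values were seen. The marker lists covered myeloid, erythroid, lymphoid, macrophage, and epithelial and mesenchymal genes. The last of these lists summed to 21.9 to 29.4 CPM in the control and 26.2 to 49.0 CPM in the knockdown. Some items of the lists are not reported here.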

Additional observations from a re-analysis of the deposited data

How the results depend on the processing

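PSMB9 kept its call in all 15 alternatives, from -1.71 to -1.43 on the log2 scale, and PSMB7 in 14 of 15. Higher calls among the members numbered 5 in the main fit and 1 to 5 when 1 library was left out, while lower calls stayed at 1 in each. The corresponding count over all genes was 870 to 1624, and the members' median 0.017 to 0.105. At an adjusted p of 0.01, 823 genes and 1 higher member were called. With library size alone the members' median was 0.13 and the calls over all genes split into 859 higher and 612 lower, where TMM gave 727 and 780. With the replicate number as a block, 2 members were called higher (PSMB5 and PSMB7) and 1 lower, and PSMC2 (0.46), PSMD2 (0.45) and PSME4 (0.51) were lost, as were ZFAND2A, DDI2, TXNL1, SYVN1, NFYA, UBE2K and TPP2. Libraries of the same number did not deviate together (correlations -0.116, -0.062 and -0.037), so the numbers were not taken as pairs. Of the 41 members not called, 17 changed sign under some alternative. The widest 95% intervals among the members were those of PSMC1, PSMA6, PSMD9 and PSMB10, which had 15, 181, 259 and 179 counts in the control libraries together.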
